A study of Homo sapiens with 6 samples.

Results

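The genes described here are the splicing factors and heterogeneous nuclear ribonucleoproteins (hnRNPs) measured by 3′ end RNA sequencing in human embryonic stem cells (hESCs) and endoderm cells made from them. Members were taken by gene name: every region whose name begins with HNRNP or HNRP, SFRS or SRSF, SF3A or SF3B, SNRP, U2AF, PRPF, LSM or RBM followed by a number or letter as the family requires. They are 106 of 9588 named genes, represented by 122 regions of 14686, and a gene with several regions (16 of the members) was represented by the one with the highest mean. The rule uses no measured value other than that mean, but it was set with earlier results of these data known. By role they fell into 26 RNA-binding motif (RBM) genes, 18 SR and SR-related genes, 17 hnRNPs, 12 PRPF genes, 12 snRNP proteins, 10 LSM genes, 9 SF3 subunits and 2 U2AF subunits.

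The study set out to compare transcripts around the G1 to S transition in both cell types. All 6 libraries came from H9 cells, an established hESC line, at passage 51, without any genetic change recorded. Endoderm cells had 6 days in activin A at 100 ng/ml, while fetal bovine serum was raised in steps, 0% to begin with, then 0.2%, then 2.0%, and the medium was changed on day 3. They gave 1 library each in G1 (0 h), G1/S (3 h) and S (6 h). Undifferentiated hESCs, grown on Matrigel in medium conditioned by mouse embryonic fibroblasts, gave 1 library each in G1 (0 h), G1/S (2 h) and S (3 h). Cell type, medium and serum differ together between the groups and cannot be told apart, and each type and phase is 1 library, so every p-value measures the spread among these 6 libraries only. No source used here says how cells were brought into phase.

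The spliceosome removes introns from precursor messenger RNA. It is assembled from small nuclear ribonucleoproteins (snRNPs), in which a short RNA is held by a ring of Sm or LSM proteins, together with SF3 and U2AF proteins at the 3′ splice site and PRPF proteins in its later, catalytic forms. SR proteins mostly promote the use of nearby splice sites, hnRNPs often oppose it, and many RBM proteins act as tissue-specific regulators of alternative exons. RBFOX2 and the ESRP proteins, which carry the older names RBM9, RBM35A and RBM35B in these data, are known regulators of the splicing programmes of stem cells and of epithelial cells.

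Depth was 5389666, 3205025 and 2502792 reads in endoderm, against 4972977, 4194957 and 6203079 in hESCs; here and below, the 3 values of a cell type stand in the order G1, G1/S and S. Values are given as signal, the reads of a region divided by a size factor of its library; 1 read was worth between 0.591 and 1.71 units, and a count of 0 allows a signal of up to 1.77 to 5.13 (3 reads, counting error only). Endoderm markers set the groups apart: all 9 of the 11 listed genes that were measured rose in endoderm, with sums of 9286 to 21817 in endoderm against 505 to 666 in hESCs, while FOXA1 and HHEX were not analysed here. Of 9 measured hESC markers, SOX2, DNMT3B and UTF1 fell, and the sums of all 9 were 1691 to 1991 in endoderm against 3285 to 4521 in hESCs. The others did not pass the test. TDGF1, L1TD1, DPPA4 and LIN28 lay above hESCs in endoderm (log2 differences of 0.98, 0.47, 0.45 and 0.41). POU5F1 and ZFP42 differed by -0.01 and -0.67. Markers of other lineages also differed between the types. Of 3 measured fibroblast and stromal markers COL1A1 and THY1 fell, with sums of 1853 to 3396 in endoderm against 5276 to 9103 in hESCs. Of 4 mesoderm markers MIXL1 and TWIST1 rose, while TBX6 and KDR lay lower in endoderm (log2 differences of -0.76 and -0.79) without passing. The sums of all 4 were 558 to 1577 in endoderm against 107 to 131 in hESCs. Of 2 neuroectoderm markers PAX6 rose, and the sums of 4937 to 11110 in endoderm against 5889 to 8962 in hESCs overlapped, as did those of 3 trophoblast markers, 139 to 303 in endoderm against 216 to 319 in hESCs, of which GATA3 rose and KRT7 and TFAP2C fell. The part of these markers in the differences below was not tested. In bulk samples such as these, fewer cells of a type and less RNA per cell cannot be told apart.

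Between endoderm and hESCs, 4 members rose and 0 fell: SNRPB2, PRPF38B, RBM17 and RBM9. Passing means an adjusted p of at most 0.05 in limma with a term for phase, adjusted by Benjamini-Hochberg over the 14657 regions tested, and all 106 members were among these. Over all regions tested, 6.9% rose and 7.6% fell, beside which the members' count of 4 is no excess. Differences are on log2(signal + 1), a scale that understates the change of weakly expressed genes.

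SNRPB2 encodes a protein of the U2 snRNP, the particle that binds the intron branch point. Its signal was 213, 93.2 and 286 in endoderm, and 60.5, 39.6 and 76.2 in hESCs (G1, G1/S, S). Every endoderm library lay above every hESC library, and the G1/S library was the lowest of each type. It averaged 197 ± 97.3 in endoderm and 58.8 ± 18.4 in hESCs (SD, n = 3 each), the difference being 1.63 ± 0.32 (log2, SE; limma adjusted p = 0.0190). Its region lies on chromosome 20, at 16669655 to 16669846 of the plus strand in the deposited positions, for which the submitters' processing notes name the build hg18 (NCBI36).

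RBM17, also called SPF45, takes part in choosing 3′ splice sites. It stood at 117, 63.2 and 130 in endoderm, and at 31.0, 28.1 and 34.9 in hESCs (G1, G1/S, S). The types did not overlap, and the hESC values were close together in all 3 phases. The means were 104 ± 35.5 in endoderm and 31.3 ± 3.38 in hESCs, and the difference was 1.63 ± 0.35 (log2, SE; limma adjusted p = 0.0258). The region is on chromosome 10, 6197504 to 6197835, plus strand.

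PRPF38B belongs to the PRP38 family of spliceosome proteins. Signal was 246, 79.9 and 265 in endoderm, against 112, 27.1 and 67.3 in hESCs (G1, G1/S, S). Endoderm exceeded hESC in each phase, but the endoderm G1/S library lay below the hESC G1 library, so the types overlapped. The log2 difference was 1.54 ± 0.32 (SE; limma adjusted p = 0.0231), on means of 197 ± 102 in endoderm and 68.8 ± 42.5 in hESCs. Its region is on chromosome 1, 109044357 to 109044458, plus strand.

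RBM9, now RBFOX2, binds the hexamer UGCAUG beside alternative exons and regulates their inclusion. Its signal was 329, 195 and 406 in endoderm, and 203, 40.6 and 88.6 in hESCs (G1, G1/S, S). It was higher in endoderm in each phase, and a single pair, endoderm G1/S below hESC G1, kept the types from separating. The log2 difference was 1.70 ± 0.38 (SE; limma adjusted p = 0.0281), on means of 310 ± 107 in endoderm and 111 ± 83.3 in hESCs. The region is on chromosome 22, 34471909 to 34472017, minus strand.

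These 4 calls changed with the libraries used and with how the spread was estimated, as did the share of all regions called (14.5% as reported). Without either G1/S library, endoderm or hESC, none of the 4 passed (limma adjusted p from 0.0622 to 0.132). Of all regions, 3.9% passed without endoderm G1/S and 2.86% without hESC G1/S. Without either S library none of the 4 passed (0.0628 to 0.0920), beside 8.19% of all regions without endoderm S and 6.65% without hESC S. Without either G1 library all 4 passed (0.00111 to 0.0375), beside 16.0% of all regions without endoderm G1 and 15.3% without hESC G1. Without a term for phase, where 12.5% of all regions passed, SNRPB2 and RBM17 still passed. PRPF38B and RBM9 did not (limma adjusted p = 0.106 and 0.0611). With no trend of the spread on intensity, SNRPB2 alone of the 4 passed (limma adjusted p = 0.0486), while RBM17, PRPF38B and RBM9 did not (0.0512, 0.0568 and 0.0755).

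Some alternatives called more members, named here after their values were seen. Without either G1 library 13 passed (12.3%), beside 16.0% of all regions without endoderm G1 and 15.3% without hESC G1: the 4 above, PRPF18, PRPF4B, RBM8A, RBM25, RBM39, SFRS11, SFRS12 and HNRNPM higher in endoderm, and RBM35B lower. DESeq2 called 11 (10.4%), beside 19.0% of all regions: the 4 above, RBM8A, RBM23, RBM39, SF3B4, SFRS12 and SFRS12IP1 higher in endoderm, and PRPF3 lower. In each of these fits the members' share lay below that of all regions.

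**Figure D1:**
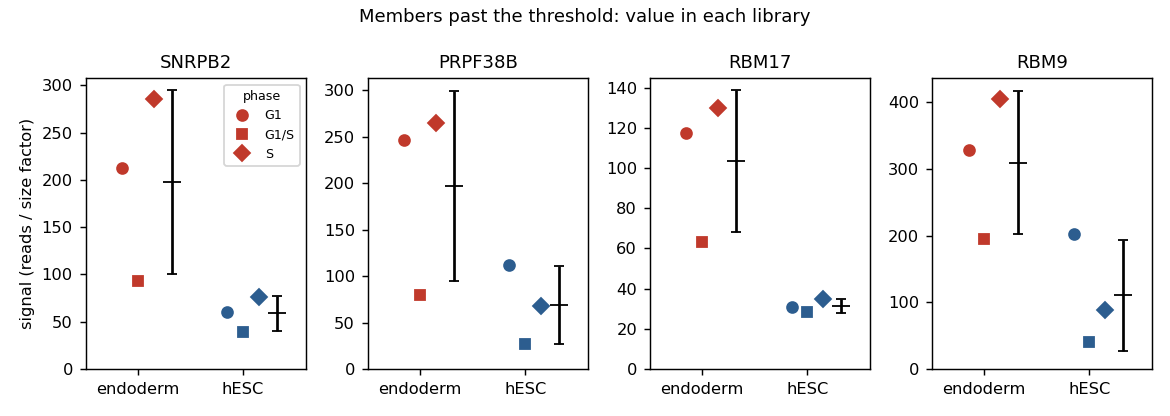
Signal (reads divided by size factor, linear axis) of the 4 members that rose, with 1 point per library, endoderm left of hESC, the symbol giving the phase, and the bar showing mean ± SD over 3 libraries. SNRPB2 and RBM17 separate the types, while for PRPF38B and RBM9 the endoderm G1/S point lies below the hESC G1 point.

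Promoters of 3 of these 4 genes are shown because the genes rose together in endoderm; each run covers 250 bases before to 50 bases after the annotated start, from RefSeq on GRCh38.p14. Of the 106 members, 92 were matched in the promoter table by symbol. The following short motifs were searched on both strands: CCGGAAG (the ETS core), CCAAT (the CCAAT box), TATAAA (the TATA box) and GGGCGG (the GC box). No match shown overlaps another. Capitals mark CCGGAAG or its reverse complement CTTCCGG in SNRPB2 (chr20:16729776-16730075, plus strand) and ATTGG, the reverse complement of CCAAT, in PRPF38B (chr1:108692060-108692359, plus strand), while RBM17 (chr10:6088784-6089083, plus strand) holds none of the 4 in this window.
SNRPB2: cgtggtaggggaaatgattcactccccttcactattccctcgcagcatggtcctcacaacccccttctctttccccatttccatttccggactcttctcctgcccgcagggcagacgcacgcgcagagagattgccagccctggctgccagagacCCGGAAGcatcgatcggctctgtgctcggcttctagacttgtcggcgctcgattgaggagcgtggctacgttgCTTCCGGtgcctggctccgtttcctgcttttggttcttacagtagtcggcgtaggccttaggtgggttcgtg
PRPF38B: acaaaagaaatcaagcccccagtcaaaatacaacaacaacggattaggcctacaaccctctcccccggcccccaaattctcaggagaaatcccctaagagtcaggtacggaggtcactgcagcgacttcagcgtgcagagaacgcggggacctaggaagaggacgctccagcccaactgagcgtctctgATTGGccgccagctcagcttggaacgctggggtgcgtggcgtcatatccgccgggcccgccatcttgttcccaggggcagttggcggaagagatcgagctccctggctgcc
RBM17: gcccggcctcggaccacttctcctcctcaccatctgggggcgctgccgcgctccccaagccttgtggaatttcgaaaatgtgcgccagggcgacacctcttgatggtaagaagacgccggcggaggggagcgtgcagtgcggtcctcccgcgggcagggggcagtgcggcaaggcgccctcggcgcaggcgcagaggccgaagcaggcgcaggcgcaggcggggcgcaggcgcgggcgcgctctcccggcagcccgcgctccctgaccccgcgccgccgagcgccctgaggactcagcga
SNRPB2 holds the ETS core at -95 and at -22 bases from its start, and PRPF38B the CCAAT box at -61. The ETS core stood in 33 of the 92 member promoters (35.9%), against 10.7% of 27305 promoters in the table and 18.9% of the 7368 promoters whose genes the deposited table names. The other motifs were in 46.7% (CCAAT box), 9.78% (TATA box) and 59.8% (GC box) of member promoters, against 36.5%, 5.06% and 73.1% of promoters of the table's genes and 35.7%, 12.0% and 44.6% of all promoters. A match describes these letters and says nothing of a bound factor.

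Over all 106 members, the log2 difference of endoderm minus hESC had a median of 0.33, against 0.02 over all regions tested and 0.04 over named genes. It was above 0 for 73 members (68.9%), against 50.7% of regions. At an unadjusted p under 0.05 there were 23 members, 19 higher and 4 lower, beside 34.2% of all regions in either direction. Endoderm and hESC libraries did not overlap for 17 members higher in endoderm (16.04%; 14.7% of all regions) and for 5 lower in endoderm (4.72%; 18.7% of all regions), the 5 being RBM16, RBM19, RBM35A, RBM41 and SNRPG. The shift in the median is a description: each gene is an item of the list, not a replicate, and it was 0.19 when the most downstream region stood for each gene, an alternative chosen after seeing the data.

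**Figure D2:**
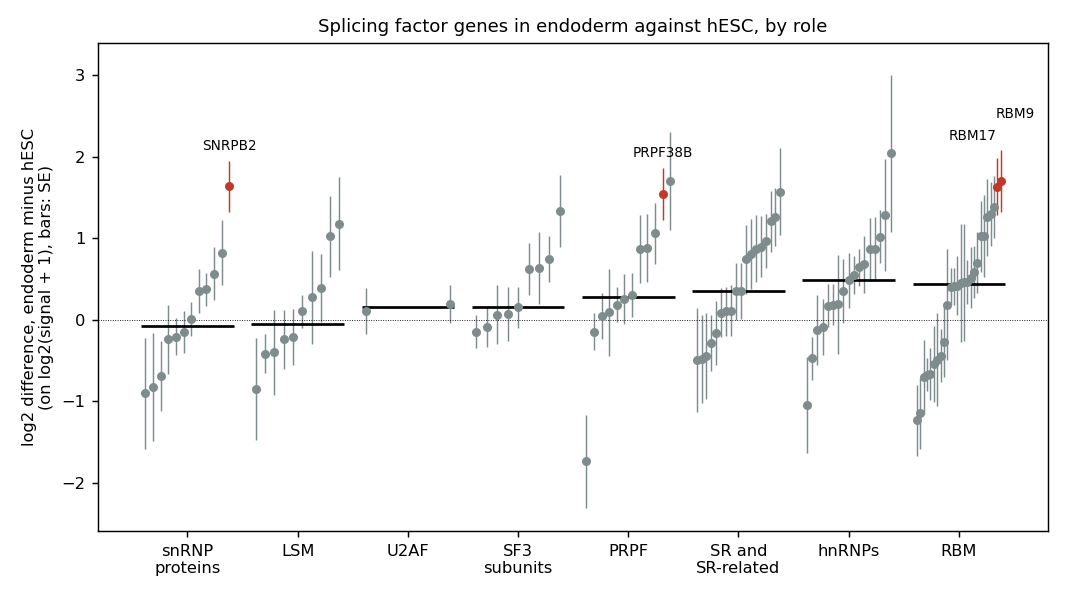
Log2 difference of endoderm minus hESC on log2(signal + 1) for each of the 106 members, ordered by size within its role, with bars for the SE and a black line at each role's median. The 4 red, named members passed the test, and the medians of snRNP and LSM genes lie just below 0 while those of hnRNPs, RBM, SR and PRPF genes lie between 0.28 and 0.48.

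The snRNP proteins had a median difference of -0.07, with 6 of 12 above 0. SNRPD2 and SNRPB, subunits of the Sm ring and the members with the highest mean signal of this role, averaged 6538 ± 2234 and 4970 ± 1307 in endoderm and 6359 ± 1490 and 3847 ± 1112 in hESCs. Their log2 differences were 0.01 ± 0.21 and 0.37 ± 0.20 (SE; limma adjusted p = 0.981 and 0.230), and that of SNRPD2 turned below 0 under quantile normalisation (-0.32). SNRPB2 was the only member of this role past an unadjusted p of 0.05.

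The LSM genes had a median of -0.06, with 5 of 10 above 0 and 0 past an unadjusted p of 0.05. Most of their products form the ring on U6 RNA or a related cytoplasmic ring in mRNA decay. LSM4 averaged 6091 ± 1579 in endoderm and 5621 ± 1082 in hESCs, and LSM7 2305 ± 1139 in endoderm and 2907 ± 674 in hESCs. Neither difference passed, at 0.10 ± 0.20 for LSM4 and -0.42 ± 0.24 for LSM7 (log2, SE; limma adjusted p = 0.752 and 0.246), and the sign for LSM4 turned under quantile normalisation (-0.18).

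Among proteins that recognise the branch point and 3′ splice site, the 9 SF3 subunits had a median of 0.15, with 7 above 0, and both U2AF genes lay above 0. SF3B5 averaged 2423 ± 610 in endoderm and 2675 ± 584 in hESCs, and SF3A2 1581 ± 781 in endoderm and 1420 ± 480 in hESCs. U2AF2, the subunit that binds the polypyrimidine tract, averaged 2017 ± 700 in endoderm and 1864 ± 634 in hESCs, and U2AF1, which reads the AG at the intron end, 1036 ± 165 in endoderm and 915 ± 202 in hESCs. All 4 differences were within the spread, from -0.15 to 0.19 on the log2 scale (limma adjusted p from 0.585 to 0.920), and under quantile normalisation SF3A2 (-0.06) and U2AF2 (-0.01) changed sign.

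Of the PRPF genes, 10 of 12 lay above 0, with a median of 0.28 and 1, PRPF38B, past the test. PRPF8, the core protein of the U5 snRNP, averaged 1597 ± 317 in endoderm and 1477 ± 873 in hESCs, and PRPF19, the ubiquitin ligase of the PRP19 complex, 1385 ± 152 in endoderm and 1230 ± 261 in hESCs. Their differences of 0.25 ± 0.31 and 0.19 ± 0.22 (log2, SE) did not pass (limma adjusted p = 0.587 and 0.571). PRPF3, a protein of the U4/U6 snRNP, had the lowest difference of all members, -1.74 ± 0.57 (limma adjusted p = 0.0801). It passed as lower in endoderm with DESeq2 and with edgeR on the recovered reads (log2 -2.07 and -2.15). The types overlapped, and the G1/S signal was close in both, at 6.65 (4 reads) in endoderm and 7.29 (7 reads) in hESCs.

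SR and SR-related genes had a median of 0.35, with 13 of 18 above 0, 5 past an unadjusted p of 0.05 and 0 past the adjusted threshold. SFRS12IP1 (now SREK1IP1), named for its binding to the SR-related protein SFRS12 (SREK1), had a signal of 487, 785 and 298 in endoderm, against 132, 258 and 240 in hESCs (G1, G1/S, S). Every endoderm library exceeded every hESC library, the difference being 1.26 ± 0.35 (log2, SE; limma adjusted p = 0.0532). It passed once the trend with GC content was removed in each library (1.20; limma adjusted p = 0.0357) and without either S library (1.74; 0.0142 and 0.0185). SFRS11, an SR protein, averaged 705 ± 232 in endoderm and 542 ± 573 in hESCs, with a difference of 0.87 ± 0.41 (limma adjusted p = 0.180) that passed without either G1 library (1.53; 0.00409 and 0.00432).

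The hnRNPs had the highest median of any role, 0.48, with 13 of 17 above 0, 2 past an unadjusted p of 0.05 and 0 past the adjusted threshold; once GC content was removed the median was 0.29, below those of the PRPF (0.42), RBM (0.42) and SF3 (0.37) genes. HNRNPAB had a signal of 947, 875 and 1092 in endoderm, against 565, 650 and 647 in hESCs (G1, G1/S, S). HNRNPUL1 had 1338, 1254 and 1751 in endoderm, against 891, 1088 and 965 in hESCs (G1, G1/S, S). Both separated the types without overlap, and neither difference passed: 0.64 ± 0.23 for HNRNPAB and 0.55 ± 0.24 for HNRNPUL1 (log2, SE; limma adjusted p = 0.0985 and 0.147).

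The RBM genes had a median of 0.43, with 17 of 26 above 0, 2 that rose (RBM17 and RBM9) and 0 that fell. RBM38, a regulator of mRNA stability, had a signal of 1803, 3106 and 1944 in endoderm, against 3086, 5068 and 2829 in hESCs (G1, G1/S, S). It was lower in endoderm in each phase, although the endoderm G1/S library exceeded 2 hESC libraries; the difference was -0.67 ± 0.20 (log2, SE; limma adjusted p = 0.0635), or -0.32 once GC content was removed (adjusted p = 0.299), and it passed under quantile normalisation (-0.85; adjusted p = 0.0280). RBM42 averaged 1620 ± 648 in endoderm and 1148 ± 375 in hESCs, with a difference of 0.46 ± 0.27 (limma adjusted p = 0.263). RBM23, a relative of the splicing coactivator RBM39, was chosen after its values were seen, being the next in order after the 4 that passed: 173, 123 and 234 in endoderm, against 37.8, 85.4 and 83.9 in hESCs (G1, G1/S, S). The types did not overlap, and differed by 1.39 ± 0.38 (log2, SE; limma adjusted p = 0.0514). RBM23 passed with DESeq2 (1.40, adjusted p = 0.0155) and once GC content was removed (1.42, limma adjusted p = 0.0344). It has 1 region, so summing the regions of each gene left its difference at 1.39. Its limma adjusted p was 0.0494 over the 13881 rows of that fit, which is not separate evidence for RBM23.

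RBM35A and RBM35B, the epithelial splicing regulators ESRP1 and ESRP2, went the other way and were also singled out after their values were seen. RBM35A had a signal of 14.5, 19.96 and 15.4 in endoderm, against 28.7, 75.0 and 24.8 in hESCs (G1, G1/S, S), at the region that stands for it. All endoderm values lay below all hESC values, but the difference of -1.15 ± 0.44 (log2, SE) missed the threshold (limma adjusted p = 0.113). Its other, downstream region, with 10.4, 9.98 and 3.42 in endoderm, against 46.1, 29.2 and 39.6 in hESCs (G1, G1/S, S), was lower by a wider margin, with the endoderm S value under the 5.13 that a count of 0 allows: the difference was -2.24 ± 0.52 (limma adjusted p = 0.0317), and the sum of both regions gave -1.68, also past the threshold. RBM35B had 59.4, 8.32 and 46.2 in endoderm, against 68.8, 34.4 and 139 in hESCs (G1, G1/S, S). It was lower in endoderm in each phase with overlap between the types, at -1.23 ± 0.44 (limma adjusted p = 0.0954), and passed without either G1 library (-1.75; limma adjusted p = 0.0197 without endoderm G1 and 0.0201 without hESC G1).

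Besides those already given, 11 members separated the types with endoderm higher and did not pass the test; they are named because of that separation, after their values were seen. Among them SF3B4, an SF3B subunit that holds the branch point region, had a signal of 87.7, 46.6 and 157 in endoderm, against 35.6, 35.4 and 30.1 in hESCs (G1, G1/S, S). PRPF18, which acts in the second catalytic step, had 40.7, 34.9 and 85.6 in endoderm, against 28.7, 14.6 and 7.09 in hESCs (G1, G1/S, S). RBM8A, the exon junction complex protein Y14, had 106, 131 and 106 in endoderm, against 80.9, 36.4 and 32.5 in hESCs (G1, G1/S, S). Their gaps were widest in S for SF3B4 and PRPF18 and in G1/S for RBM8A, at log2 differences of 1.34 ± 0.44, 1.70 ± 0.60 and 1.30 ± 0.39 (SE; limma adjusted p = 0.0807, 0.0936 and 0.0653). SF3B4 passed with DESeq2 (adjusted p = 0.0488), PRPF18 without either G1 library (2.31; limma adjusted p = 0.0182 without endoderm G1 and 0.0158 without hESC G1), and RBM8A with both alternatives (DESeq2 adjusted p = 0.0418; limma 0.0122 without endoderm G1 and 0.0115 without hESC G1). SFRS10, the human counterpart of the fly splicing regulator Transformer-2 now called TRA2B, had 92.5, 64.9 and 132 in endoderm, against 59.8, 32.3 and 53.8 in hESCs (G1, G1/S, S), or 0.96 ± 0.33 (limma adjusted p = 0.0904). HNRNPH3 had 105, 78.2 and 116 in endoderm, against 62.0, 36.4 and 49.0 in hESCs (G1, G1/S, S), or 1.02 ± 0.32 (limma adjusted p = 0.0739). A further 5, SF3A1, SF3B2, LSM8, HNRNPF and HNRPK, differed by 0.48 to 1.18 (limma adjusted p from 0.112 to 0.339). Of the 5 on the lower side, RBM41 had 105, 99.8 and 115 in endoderm, against 248, 121 and 161 in hESCs (G1, G1/S, S), and RBM16, RBM19 and SNRPG differed by -0.70, -0.44 and -0.69 (limma adjusted p from 0.283 to 0.360). SNRPG separated narrowly, with 24.2 (35 reads) in endoderm G1 below 25.0 (24 reads) in hESC G1/S. Their 95% counting intervals overlapped (16.8 to 33.6 and 16.0 to 37.2), and 20 annotated pseudogenes carry its name.

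Between phases, with 2 libraries of each phase averaged over the cell types, 0 members passed in limma in any of the 3 comparisons, and neither did any of the 14657 regions (0.0%). For G1/S against G1, 27 members had an unadjusted p under 0.05, 9 higher and 18 lower in G1/S, against 13.7% of all regions; edgeR called 0 members, and DESeq2 called 3 of the 95 to which it gave an adjusted p (3.16%), all lower in G1/S, against 0.856% of regions. For S against G1 the count was 4 (2 higher, 2 lower; 3.39% of regions), with 0 calls by edgeR and by DESeq2. For S against G1/S it was 15 (12 higher, 3 lower; 10.6% of regions), with 0 by edgeR and 1 of 99 by DESeq2 (1.01%, against 1.27% of regions). The 2 libraries of a phase were taken at different hours in the 2 cell types.

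The members' median lay furthest from that of all regions in the comparisons with G1/S. For G1/S minus G1 it was -0.25, against 0.07 over all regions, but 0.08 without endoderm G1 and -0.03 without endoderm G1/S (0.11 and 0.07 over all regions); 44 members were lower in G1/S in both cell types (41.5%, against 29.0% of regions) and 27 higher in both (25.5%, against 34.7%). S minus G1/S ran opposite, with a median of 0.26 against -0.04 over all regions, and 46 members higher in S in both cell types (43.4%, against 30.9%). Without endoderm G1/S this median was 0.12 and without hESC G1/S 0.42. The 2 comparisons share the G1/S libraries and are not separate observations. S minus G1 had a median of 0.08, against 0.00 over all regions.

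The SR and SR-related genes had the lowest median for G1/S minus G1, -0.81, with 14 of 18 below 0. SFRS11 had a signal of 882, 443 and 791 in endoderm, and 1199, 151 and 276 in hESCs (G1, G1/S, S). SFRS12 had 274, 76.5 and 383 in endoderm, and 224, 32.3 and 40.8 in hESCs (G1, G1/S, S). Both were lowest in G1/S in each cell type, at -1.99 ± 0.51 for SFRS11 and -2.29 ± 0.65 for SFRS12 (log2, G1/S minus G1, SE; limma adjusted p = 0.362 for each), and both were past the threshold in DESeq2. SFRS18 (now PNISR), with 235, 94.8 and 156 in endoderm and 292, 70.8 and 135 in hESCs (G1, G1/S, S), had the same order of phases in both types. Its difference was -1.67 ± 0.37 for G1/S minus G1 and -0.85 ± 0.37 for S minus G1 (limma adjusted p = 0.362 and 0.982).

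**Figure D3:**
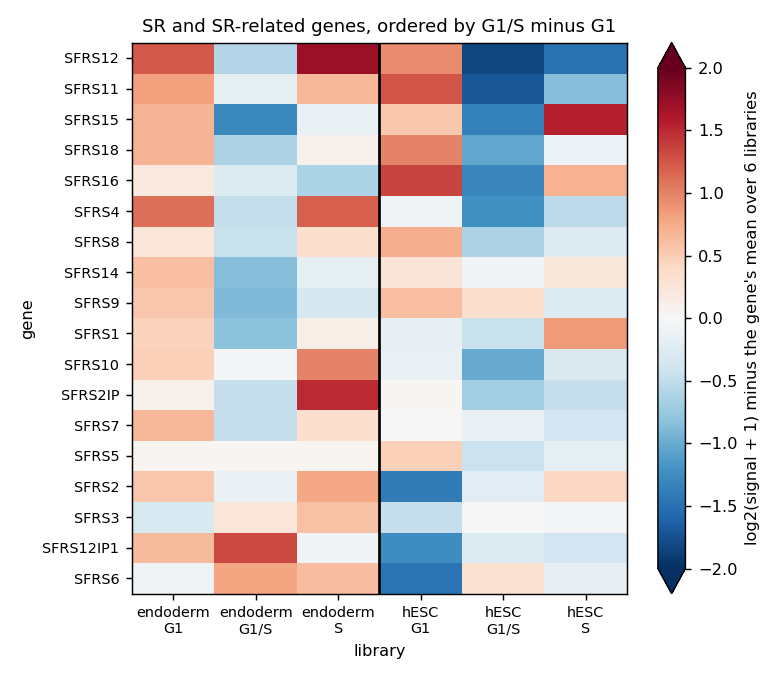
Each row is an SR or SR-related gene and each column a library, endoderm left of hESC; colour gives log2(signal + 1) minus the gene's mean over the 6 libraries, and rows run by the G1/S minus G1 difference. Of the 18 genes, 14 have a G1/S minus G1 difference below 0. SFRS6, shown by its upstream region, and SFRS12IP1, at the foot, are the furthest above 0.

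Outside the SR genes, the members with the smallest p for G1/S minus G1 were PRPF38B, whose values are given above, HNRNPA2B1 and LSM6. PRPF38B had a difference of -1.81 ± 0.39 and was past the threshold in DESeq2. HNRNPA2B1, an abundant hnRNP, had a signal of 455, 190 and 289 in endoderm, and 596, 220 and 512 in hESCs (G1, G1/S, S), lowest in G1/S in both, at -1.35 ± 0.32. LSM6 had 22.8, 3.33 and 13.7 in endoderm, and 34.8, 6.25 and 12.4 in hESCs (G1, G1/S, S), at -2.38 ± 0.64; the G1/S signal in endoderm is under the 4.99 that a count of 0 allows there. The limma adjusted p was 0.362 for all 3.

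The phase pattern moved with the GC content of transcript ends. In the last 500 bases of the transcript, GC content had a median of 43.3% over the members, against 50.4% over named genes, with 37.9% for the SR and 37.5% for the hnRNP genes. GC content was taken per gene, as the median over its annotated transcripts, and not from the measured region. Across 9958 named regions, the deviation of a library from the region's mean correlated with GC at a Spearman rho of -0.40, 0.27 and -0.14 in endoderm, and -0.01, 0.41 and -0.13 in hESCs (G1, G1/S, S); the regions share libraries, and the values are descriptions. Members at or below the median GC had a G1/S minus G1 median of -0.57, against -0.65 over named genes in the same range, and members above it 0.10 against 0.22. With the GC trend removed in each library, an alternative for named regions, the members' median became 0.05 for G1/S minus G1 (0.08 over named genes) and -0.07 for S minus G1/S (-0.10 over named genes). The SR median stayed below 0, at -0.33 with 13 of 18 below 0, and the hnRNP median turned to 0.25. For endoderm minus hESC the members' median was 0.30 after the same step.

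**Figure D4:**
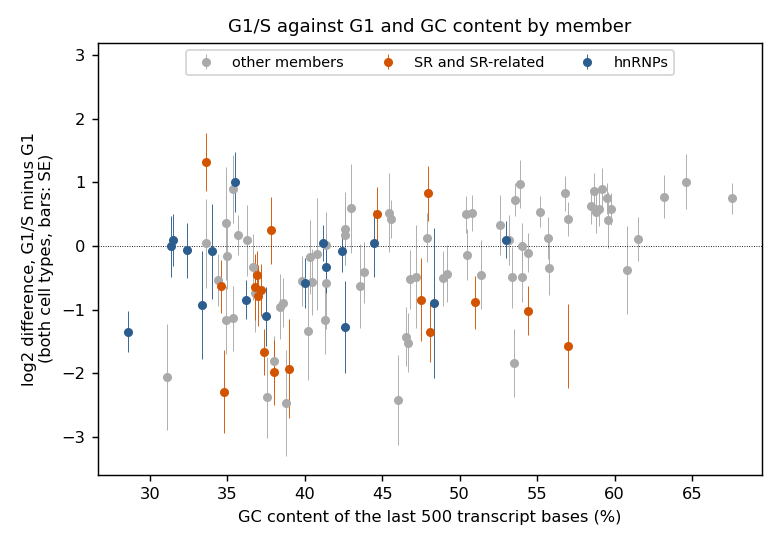
Log2 difference of G1/S minus G1 for each of the 106 members (bars show the SE) against the GC content of the last 500 transcript bases, with SR and SR-related genes in orange, hnRNPs in blue and the other members in grey. Members above 43.3% GC had a median of 0.10 and those at or below it a median of -0.57.

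For S against G1, RBM14, a coactivator that also binds RNA, had the smallest p. Its signal was 88.4, 89.8 and 187 in endoderm, and 40.1, 69.8 and 219 in hESCs (G1, G1/S, S). S was the highest phase in both types, with a difference of 1.75 ± 0.44 for S minus G1 and 1.34 ± 0.44 for S minus G1/S (log2, SE; limma adjusted p = 0.982 and 0.463). HNRNPA1 had 46.3, 19.96 and 3.42 in endoderm, and 58.2, 21.9 and 27.8 in hESCs (G1, G1/S, S), at -2.23 ± 0.72 for S minus G1; the endoderm S value is under the 5.13 that a count of 0 allows, and 74 annotated pseudogenes carry this gene's name in GENCODE release 29, so its count is uncertain. HNRNPUL2 (-0.83 ± 0.31), RBM4 (0.68 ± 0.28) and HNRNPU, the scaffold attachment factor (1.08 ± 0.48), completed the 6 smallest p-values beside SFRS18, each at a limma adjusted p of 0.982. HNRNPU was lowest in G1 in both types, with 117, 133 and 164 in endoderm, and 32.5, 119 and 106 in hESCs (G1, G1/S, S).

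For S against G1/S, PRPF3 led, with a signal of 18.0, 6.65 and 25.7 in endoderm, and 95.3, 7.29 and 180 in hESCs (G1, G1/S, S). The G1/S values rest on 4 reads in endoderm and 7 in hESCs, with 95% counting intervals of 1.81 to 17.0 and 2.93 to 15.0. G1/S was the lowest phase in both types, and the difference of 3.12 ± 0.70 for S minus G1/S (log2, SE; limma adjusted p = 0.463) was past the threshold in DESeq2 and without either G1 library. RBM35B (2.16 ± 0.54), PRPF38B (1.502 ± 0.39) and SNRPB2 (1.27 ± 0.39) were higher in S than in G1/S in both types as well, at the same adjusted p. RBM38 was lower in S (-0.76 ± 0.25; limma adjusted p = 0.463), and that difference became 0.00 once GC content was removed.

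Some genes have more than 1 region in the table, and 14 members had 2 regions with a mean of at least 10. Whether each region is a true end of that gene's transcripts was not tested, and the regions named LSM2 lie 28658934 bases apart. For these the log2 ratio of the second to the first region by mean signal was compared between endoderm and hESCs in limma across 644 genes. None of the 14 passed, against 1.4% of the 644, and 1 had an unadjusted p under 0.05 (20.8% of the 644); the ratio was lower in endoderm for 9 of the 14, against 57.9% of the 644. No other tool was run for this ratio.

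RBM39, a coactivator and splicing factor related to U2AF, was the member with the smallest p. Its downstream region, 15016 bases from the first, held 9.44%, 4.80% and 4.40% of the reads of both in endoderm, against 17.9%, 15.4% and 20.9% in hESCs (G1, G1/S, S). The shares did not overlap between the types, and the log2 ratio differed by -1.80 ± 0.51 (SE; limma adjusted p = 0.104). By region, the upstream one had a signal of 258, 527 and 558 in endoderm, against 312, 120 and 148 in hESCs (G1, G1/S, S) (log2 difference 1.26 ± 0.47, limma adjusted p = 0.109), and the downstream one differed by -0.54 ± 0.44 (limma adjusted p = 0.411). The estimates for RBM39 have opposite signs at its 2 regions, and neither passed, although the upstream one did with DESeq2 (1.29; adjusted p = 0.0410) and in limma without either G1 library (2.02; adjusted p = 0.00121 without endoderm G1 and 0.00114 without hESC G1).

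HNRNPM, an hnRNP that regulates alternative exons, had regions 44017 bases apart. The upstream region, which stands for the gene, had a signal of 222, 251 and 1325 in endoderm, against 363, 91.6 and 30.7 in hESCs (G1, G1/S, S). The downstream region had 342, 293 and 291 in endoderm, against 297, 324 and 242 in hESCs (G1, G1/S, S). The downstream signal thus stayed between 242 and 342 in all 6 libraries while the upstream signal spanned 30.7 to 1325. The log2 difference of endoderm minus hESC was 2.04 ± 0.96 upstream and 0.11 ± 0.26 downstream (SE; limma adjusted p = 0.177 and 0.793), and the upstream difference passed without either G1 library (3.42; 0.00271 without endoderm G1 and 0.00226 without hESC G1). The ratio of the regions differed by -1.93 (adjusted p = 0.279), or by -3.35 without either G1 library (adjusted p = 0.0278) and by -0.34 without either S library (adjusted p = 0.936).

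**Figure D5:**
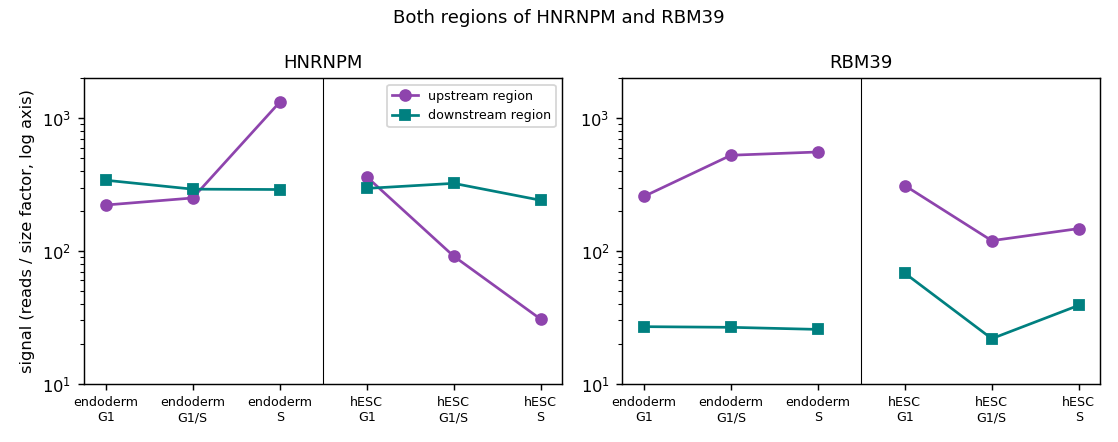
Signal on a log axis (reads divided by size factor) of the upstream and downstream regions of HNRNPM and RBM39 in the 6 libraries, endoderm left of hESC, phases in order G1, G1/S and S. For HNRNPM the downstream region stays between 242 and 342 while the upstream one reaches 1325 in endoderm S and 30.7 in hESC S; for RBM39 the downstream share is 4.40% to 9.44% in endoderm and 15.4% to 20.9% in hESCs.

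SFRS6 (now SRSF6), a classical SR protein, had regions 2117 bases apart, and the downstream one held 29.3%, 12.0% and 15.6% of reads in endoderm, against 57.8%, 26.5% and 25.0% in hESCs (G1, G1/S, S). In each phase the share was lower in endoderm, with overlap between the types, and the log2 ratio differed by -1.27 ± 0.56 (SE; limma adjusted p = 0.240). The counts behind the downstream region were small, from 6 to 26 reads per library. By region, endoderm minus hESC was 0.90 ± 0.38 upstream and -0.38 ± 0.49 downstream (log2, SE, limma adjusted p = 0.140 and 0.613). For G1/S minus G1 the values were 1.32 ± 0.46 upstream and -0.37 ± 0.60 downstream (limma adjusted p = 0.362 and 0.768). Of the 13 members whose regions lie within 200000 bases of each other, the upstream region had the higher mean in 7 and the downstream one in 6, so for the 7 the gene's value above comes from the upstream region.

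A wider list of splicing and mRNA processing genes held 169 names, of which 7 are members and 128 of the rest were measured. CUGBP1 (now CELF1) and THRAP3 rose in endoderm and NOVA2 fell, which is 3 of 128 against the 14.5% of all regions that passed in either direction; the median difference was 0.28. CUGBP1, a regulator of alternative splicing and mRNA decay, had 91.8, 38.3 and 82.2 in endoderm, against 25.7, 15.6 and 23.0 in hESCs (G1, G1/S, S) (1.61 ± 0.37, log2, SE; limma adjusted p = 0.0307), with no overlap. THRAP3, found with spliceosomes and in the coactivator complex it is named for, had 181, 99.8 and 430 in endoderm, against 71.1, 37.5 and 21.3 in hESCs (G1, G1/S, S) (2.33 ± 0.59; limma adjusted p = 0.0397), also with no overlap. NOVA2, known as a neuronal splicing regulator, had 26.2, 9.98 and 6.85 in endoderm, against 56.7, 42.7 and 34.3 in hESCs (G1, G1/S, S) (-1.75 ± 0.44; limma adjusted p = 0.0397), again separate. For endoderm minus hESC, 32 of the 128 had an unadjusted limma p under 0.05, beside 34.2% of all regions. In the phase comparisons 0 of the 128 passed. At an unadjusted p under 0.05 there were 22 for G1/S minus G1, 3 for S minus G1 and 10 for S minus G1/S. Over all regions the shares were 13.7%, 3.39% and 10.6%.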

How the data were processed

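Polyadenylated RNA of 6 libraries was sheared, primed with oligo(dT) and sequenced at its 3′ ends, per the labels' protocols. The authors deposited 1 table of signal values for 14686 regions, each with a position and, for 10368, a gene name; per the submitters' processing notes, Bowtie 0.12.7, DESeq 1.5.24, CASAVA 1.5 and the builds hg18 and NCBI36 were used, in roles that no source used here states. The deposited signal is linear: 100% of values are whole reads divided by 1 constant per library (tolerance 1e-06), and these recovered reads were used for depth and for the count tests.

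Regions with log2(signal + 1) of at least 1 in at least 3 libraries were kept (14657; 29 removed). They were fitted with cell type and phase in limma 3.58.1 (R 4.3.3, eBayes with an intensity trend; 2 residual degrees of freedom, prior 5.46), and p-values were adjusted by Benjamini-Hochberg over all regions. A phase contrast assumes the same effect in both cell types; within a type each phase has 1 library and no test. Alternatives were quantile normalisation, other filters and pseudocounts, no intensity trend, edgeR 4.0.16 and DESeq2 1.42.0 on recovered reads, each library left out, both G1/S libraries left out, no phase term, and the sum of a gene's regions; GC removal (loess span 0.5) for cell types and the most downstream region were added after seeing the data. No column of values was left unused.

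Of the members, 80 carry a current symbol and 26 an older one, by the RefSeq gene table; promoters are from RefSeq. GC content, over the last 500 bases, came from GENCODE release 29 and covered 96.2% of named regions and all 106 members. Named genes were those past the threshold, the 6 with the smallest p in each phase contrast, the 2 with the highest mean in each role and the 3 with the smallest p for region use; others are named as chosen afterwards. The members, gene lists and tests were chosen with earlier results of these data known. The values of 1 member counted among those that separated the types are not reported here.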

Additional observations from a re-analysis of the deposited data

Results flagged for a closer look

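HNRNPM moved in opposite directions between phases in the 2 cell types at the region that stands for it. For S minus G1 the log2 difference was 2.57 in endoderm and -3.52 in hESCs, with counting intervals of the S to G1 ratio of 5.23 to 6.81 in endoderm and 0.0623 to 0.113 in hESCs. For S minus G1/S it was 2.39 in endoderm and -1.55 in hESCs, with intervals of 4.42 to 6.32 in endoderm and 0.233 to 0.478 in hESCs. Each value compares 1 library with 1 other, the intervals cover counting error only, and the difference between the cell types was not tested. At the downstream region of the same gene, the signal stayed between 242 and 342 in all 6 libraries.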

How the results depend on the processing

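The median difference of endoderm minus hESC over the members kept its sign under every alternative run. That median was 0.19 with the most downstream region of each gene. The count of members past the threshold changed with the setting, and so did the share of all regions. The count was 4 as reported (14.5% of all regions) and 11 with DESeq2 (19.0%). Without the intensity trend the count was 1 (SNRPB2), and fewer of all regions passed as well. Without a phase term, and so with no replicate block, the count was 2 (SNRPB2 and RBM17), beside 12.5% of all regions. Without both G1/S libraries the count was 0 (2.83% of all regions). With 1 library left out the count was 0 to 13, beside 2.86% to 16.0% of all regions. Leaving out 1 library of a phase also removes what the other library of that phase says of cell type, so the 2 give the same differences. In the phase comparisons, leaving out a library of a compared phase leaves 1 library in that phase, so calls from those fits are not counted. For G1/S minus G1, DESeq2 called 3 of 95 members (3.16%, against 0.856% of regions). In limma without either S library 0 members passed, beside 0.0341% of regions without endoderm S and 0.0136% without hESC S. The median became 0.055 with GC content removed and ran from -0.40 to 0.083 (without endoderm G1). For S minus G1, 0 members passed without either G1/S library (0.0% of regions). The median was -0.037 under quantile normalisation and -0.022 (without endoderm S) to 0.135 with 1 library left out. For S minus G1/S, DESeq2 called 1 of 99 members (1.01%, against 1.27% of regions). In limma without either G1 library 2 members passed (1.89%), beside 0.723% of regions without endoderm G1 and 1.67% without hESC G1. The median was -0.066 with GC content removed and 0.12 to 0.42 with 1 library left out. The count of members whose region use differed was 0 to 1 with 1 library left out.

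Signs turned under quantile normalisation for LSM4 (-0.18), SF3A2 (-0.061), U2AF2 (-0.015) and SNRPD2 (-0.32), under edgeR for SNRPD2 (-0.041), without both G1/S libraries for SF3A2 (-0.034) and SNRPD2 (-0.062), and, for S minus G1/S, with GC content removed for RBM38 (0.0033). With 1 library left out, the differences of endoderm minus hESC spanned 0 in LSM4 (-0.0033 to 0.24), SF3A2 (-0.37 to 0.59), U2AF2 (-0.21 to 0.41) and SNRPD2 (-0.10 to 0.19). The cause was not tested. The labels give no replicate numbers; the phase term serves as the block. At 6 to 26 reads, as in the downstream region of SFRS6, counting error limits what can be seen.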
